A study of Mus musculus with 5 samples.

Results

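Chromatin accessibility was compared between 2 fractions of mouse γδ thymocytes that carried a Sox13 transgene, transgenic SOX13hi and transgenic SOX13lo, which are 2 of the 5 libraries of the series. The members of the comparison were all peaks on the 19 autosomes in the deposited lists of these libraries. They were 62159 of the 63932 peaks of transgenic SOX13hi and 32167 of the 33155 peaks of transgenic SOX13lo. The assay was ATAC-seq, which inserts sequencing adapters into open DNA with a transposase, so a peak marks a stretch of accessible chromatin.

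Both libraries came from C57BL/6 mice of the genotype TCRbeta KO.Sox13tg+.Sox13 ECFP KI/+. These animals lacked the TCR β chain, carried the Sox13 transgene and had ECFP knocked into 1 Sox13 allele. From the gd+ CD24+ thymocytes of these animals, 40000 cells per library were sorted by CFP fluorescence, as CFPhi for SOX13hi and CFPlo/- for SOX13lo. The fraction names therefore follow the reporter of the endogenous Sox13 gene, and the SOX13 protein level of the cells, from the gene or the transgene, is not known here. The SOX13hi and SOX13lo libraries without the transgene came from TCRbeta KO.Sox13 ECFP KI/+ mice and were sorted in the same way, and double-positive (DP) thymocytes came from wild type C57BL/6 mice. The promoter of the transgene, the age and number of the animals and any pooling are not given in the labels. Each group held 1 library, so no difference had a replicate check and no p-value is given.

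γδ T cells carry an antigen receptor of γ and δ chains, and some of them are programmed in the thymus to make interleukin 17 (IL-17). SOX13 is a transcription factor with an HMG box, a domain that binds and bends DNA, and it is known for its expression in γδ thymocytes and its role in the IL-17 programme. TCF1 and LEF1, made from Tcf7 and Lef1, belong to the same HMG-box superfamily and act throughout T cell development. CD24 marks immature thymocytes, so both fractions were taken before full maturation.

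The transgenic SOX13hi peaks covered 5.69 Mb and the transgenic SOX13lo peaks 2.57 Mb. The other autosomal lists held 53009 (SOX13hi), 65744 (SOX13lo) and 110707 (DP) peaks, so transgenic SOX13lo was the shortest list of the series. Median peak widths were 41 bp in transgenic SOX13hi and 30 bp in transgenic SOX13lo. The labels give transgenic SOX13hi and DP the same index sequence. Each peak of the SOX13lo list without the transgene carries a name that reads SOX13hi, and the label of that sample was followed in every use of it. Since the read depth is unknown, a difference in list length may reflect depth. Every comparison was therefore made with all peaks and again with the 33155 highest-scoring peaks of each list (the length of the shortest), called equal number below, of which 32236 and 32167 were autosomal.

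Strong accessible sites were common to both transgenic fractions, and the difference between the lists lay mostly in weak peaks. In the 10% of each list with the highest scores, 89.1% of transgenic SOX13hi peaks (95% interval 88.3 to 89.9) and 94.1% of transgenic SOX13lo peaks (93.2 to 94.9) were shared, meaning that they overlapped the other list by 1 bp or more. In the lowest-scoring 10% these shares were 6.61% and 44.1%. The shares over the whole lists were 31.0% (30.6 to 31.4) for transgenic SOX13hi and 67.1% (66.6 to 67.6) for transgenic SOX13lo. The equal number gave 51.0% and 59.3%, running from 93.3% and 93.9% among the highest scores to 17.9% and 34.4% among the lowest. The fractions without the transgene shared 67.1% and 61.9% of their peaks with the equal number. The intervals of all shares are exact (Clopper-Pearson, 95%), treat peaks as independent and cover counting error only.

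**Figure D1:**
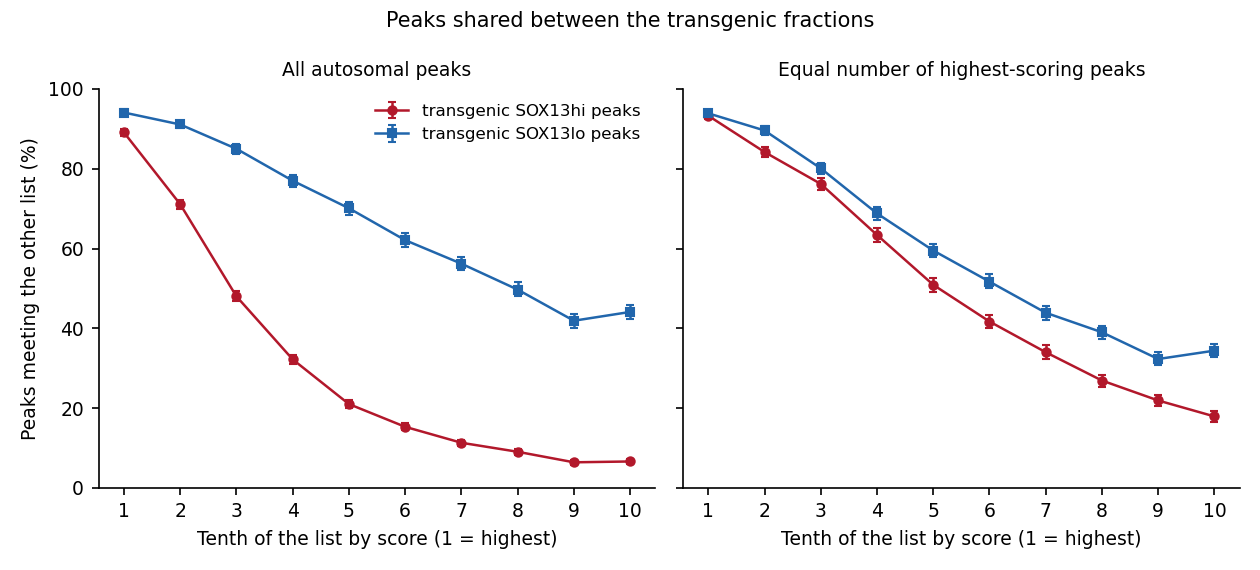
Share of autosomal peaks of each transgenic list that met a peak of the other list (percent, y axis), in 10 steps of equal size from the highest to the lowest scores (x axis), for all peaks and for the equal number of highest-scoring peaks. Points are shares and bars are exact 95% intervals; with all peaks the transgenic SOX13hi shares run from 89.1% to 6.61% and the transgenic SOX13lo shares from 94.1% to 44.1%.

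Peaks that missed the other list often lay beside one of its peaks. Of the 10575 unshared transgenic SOX13lo peaks, 77.4% were within 500 bp of a transgenic SOX13hi peak, and so were 188 of the 191 unshared peaks in its highest-scoring 10%. Of the 42884 unshared transgenic SOX13hi peaks, 42.2% lay within 500 bp of a transgenic SOX13lo peak. In the highest-scoring 10% of that list the share was 53.0% of 677 peaks (49.2 to 56.8). In lists of the equal number, 61.3% of unshared transgenic SOX13lo peaks and 42.9% of unshared transgenic SOX13hi peaks had a neighbour in the other list. Narrow peaks were shared less often: 14.4% of the transgenic SOX13hi peaks of 28 to 30 bp met the other list, against 45.6% of the wider ones. In transgenic SOX13lo these shares were 53.5% and 80.9%.

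To give all libraries the same units, the 5 lists were merged into 153269 autosomal regions, of which 57082 were present in at least 1 transgenic library. Both transgenic fractions held 18492 of them, transgenic SOX13hi alone held 33070 and transgenic SOX13lo alone held 5520. The equal number gave 15920, 11931 and 8226 regions. The regions of transgenic SOX13hi alone had a median score of 10 in that list, close to its lowest score of 7, and the regions in both had a median of 35. For transgenic SOX13lo the medians were 9 and 17, above a lowest score of 8. What the score counts is not stated in the sources used here, so it was never compared between lists.

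The 3 libraries outside the pair held most of the regions that both transgenic fractions shared. Of these, 88.2% were also in SOX13hi, 91.1% in SOX13lo and 88.7% in DP, and 2.29% were in none of them. Regions of transgenic SOX13hi alone were found again in SOX13hi in 38.0% of cases, in SOX13lo in 41.9% and in DP in 49.3%, and 34.0% were in none. Regions of transgenic SOX13lo alone were found again less widely, in 18.9%, 27.6% and 34.5% of cases, and 51.3% were in no other library of the series. Under the equal number the share in no other library was 31.4% for transgenic SOX13hi alone and 61.8% for transgenic SOX13lo alone. DP then held 40.3% of the regions of transgenic SOX13hi alone, SOX13hi 47.8% and SOX13lo 43.1%, whereas with all peaks DP held the highest share. This setting shortens the DP list most. Whether the index sequence that DP and transgenic SOX13hi share has a part in these values was not tested.

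**Figure D2:**
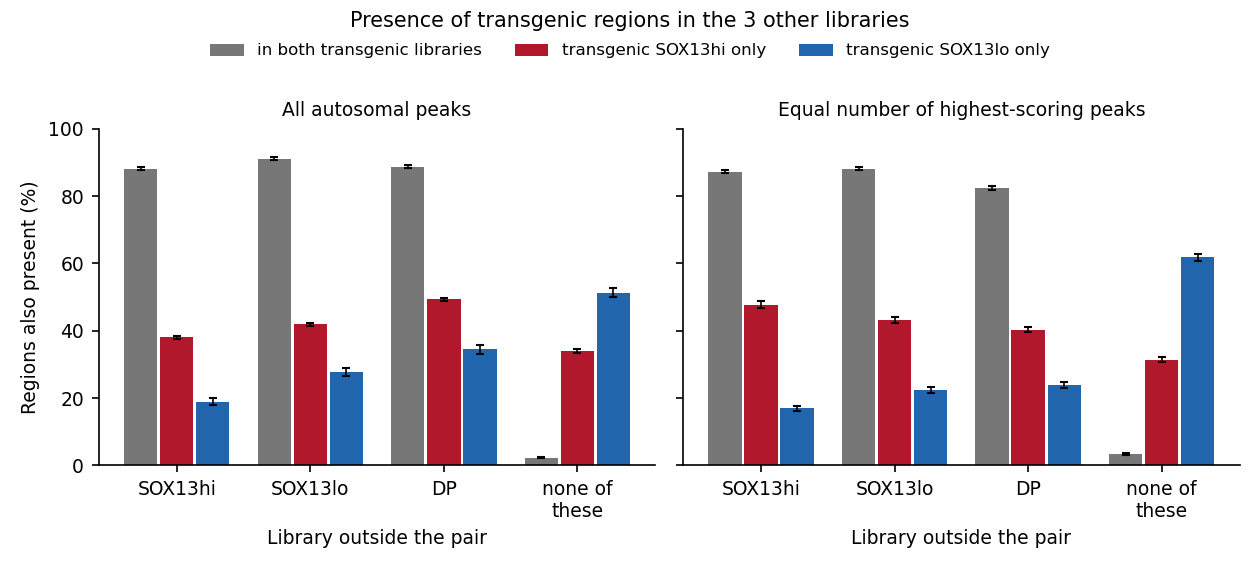
Share of regions (percent, y axis) of 3 classes, in both transgenic libraries, in transgenic SOX13hi alone or in transgenic SOX13lo alone, that were also present in SOX13hi, in SOX13lo, in DP or in none of these (x axis), with all peaks and with the equal number. Bars are shares with exact 95% intervals; 51.3% of the regions of transgenic SOX13lo alone and 2.29% of those in both were in no other library with all peaks.

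Regions that exactly 1 of the fractions without the transgene held were used to ask whether the transgenic difference went the same way as the difference between SOX13hi and SOX13lo, which shares no library with it. Among the 8804 such regions of transgenic SOX13hi alone, 42.7% (41.6 to 43.7) were in SOX13hi and the rest in SOX13lo. Among the 1290 of transgenic SOX13lo alone, 31.4% (28.9 to 34.0) were in SOX13hi. The share over all 42691 regions of the series that exactly 1 of these fractions held was 33.2%, and it was 36.9% for regions in both transgenic libraries. The equal number gave 57.8% (56.1 to 59.4), 35.7% (33.3 to 38.1), 44.5% and 46.7%. Regions of transgenic SOX13hi alone thus lay on the SOX13hi side of that pair more often than regions of transgenic SOX13lo alone, by intervals that do not overlap in either setting. This order rests on the label of the SOX13lo list, whose peak names read SOX13hi. With the lists of that pair exchanged, which was tried after the values were seen, the shares were 57.3% and 68.6%, and 42.2% and 64.3% with the equal number, so the order turned.

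In 100 kb bins, differences were counted after scaling to equal totals, dividing the ratio of transgenic SOX13hi to transgenic SOX13lo regions by the ratio of their totals (2.15 with all peaks, 1.15 with the equal number). A bin was tested when it held at least 8 regions over both libraries, counting each library's regions. Of 3814 tested bins, 326 (8.55%) passed 2-fold towards transgenic SOX13hi and 306 (8.02%) towards transgenic SOX13lo. Under the equal number, 121 (5.39%) and 141 (6.28%) of 2245 bins passed. These folds have no test, and with few regions per bin a 2-fold ratio carries a wide counting error. Of the 326 bins, 28 held no transgenic SOX13lo region and so met the minimum of 8 regions through transgenic SOX13hi alone. With 3 regions put in place of each 0, 2 of those 28 still passed 2-fold, which leaves 300 bins (7.87%). This replacement takes no account of counting error, so its folds are not lower limits. No autosome stood far from the rest: scaled ratios ran from 0.872 on chromosome 19 to 1.07 on chromosomes 3 and 6.

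The bins higher in transgenic SOX13hi were also higher in SOX13hi than in SOX13lo, after scaling, in 62.6% of cases (57.1 to 67.8). The share was 55.3% (53.5 to 57.0) in bins that passed in neither direction and 52.3% (46.5 to 58.0) in bins higher in transgenic SOX13lo. The equal number gave shares of 69.4% (60.4 to 77.5), 54.2% (52.0 to 56.4) and 41.8% (33.6 to 50.4). These shares rest on the same label of the SOX13lo list.

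The 76 loci named here are runs of whole 100 kb mm9 bins that hold genes known in T cell development, and other genes may lie in the same bins. Of the 87 tested bins in these loci, 14 (16.1%) passed 2-fold towards transgenic SOX13hi, or 12 (13.8%) with counts of 0 set at 3 regions, and 4 (4.60%) passed towards transgenic SOX13lo. Under the equal number both were 4 of 60 (6.67%), close to the 5.39% and 6.28% over all bins. The median scaled ratio of the locus bins was 0.931, the same as over all tested bins. Counted as whole loci, 69 of 76 had enough regions, 12 passed the same rule towards transgenic SOX13hi and 4 towards transgenic SOX13lo. At 3 of the 12, Zbtb7b, Ebf1 and Irf8, transgenic SOX13lo held no region. With 3 regions in place of 0 each fold was 1.24, which leaves 9 loci at 2-fold or more. The exact lower limit of each of these ratios was 0.795. Under the equal number 56 loci had enough regions, and 2 passed towards transgenic SOX13hi (Maf and Nfil3) and 3 towards transgenic SOX13lo (Ets1, Notch1 and Id3). The exact 95% interval of the scaled ratio included 1 at all 76 loci with all peaks. Under the equal number it excluded 1 at 3 of them, Maf, Ets1 and Hes1. Hes1 had too few regions to be tested there (0 against 5). Among 76 intervals at 95%, some may exclude 1 by counting error alone, and no allowance was made for this. In bulk cells, fewer cells with an open site and less opening per cell cannot be told apart. Region numbers below are given in the order transgenic SOX13hi, transgenic SOX13lo, SOX13hi, SOX13lo and DP.

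**Figure D3:**
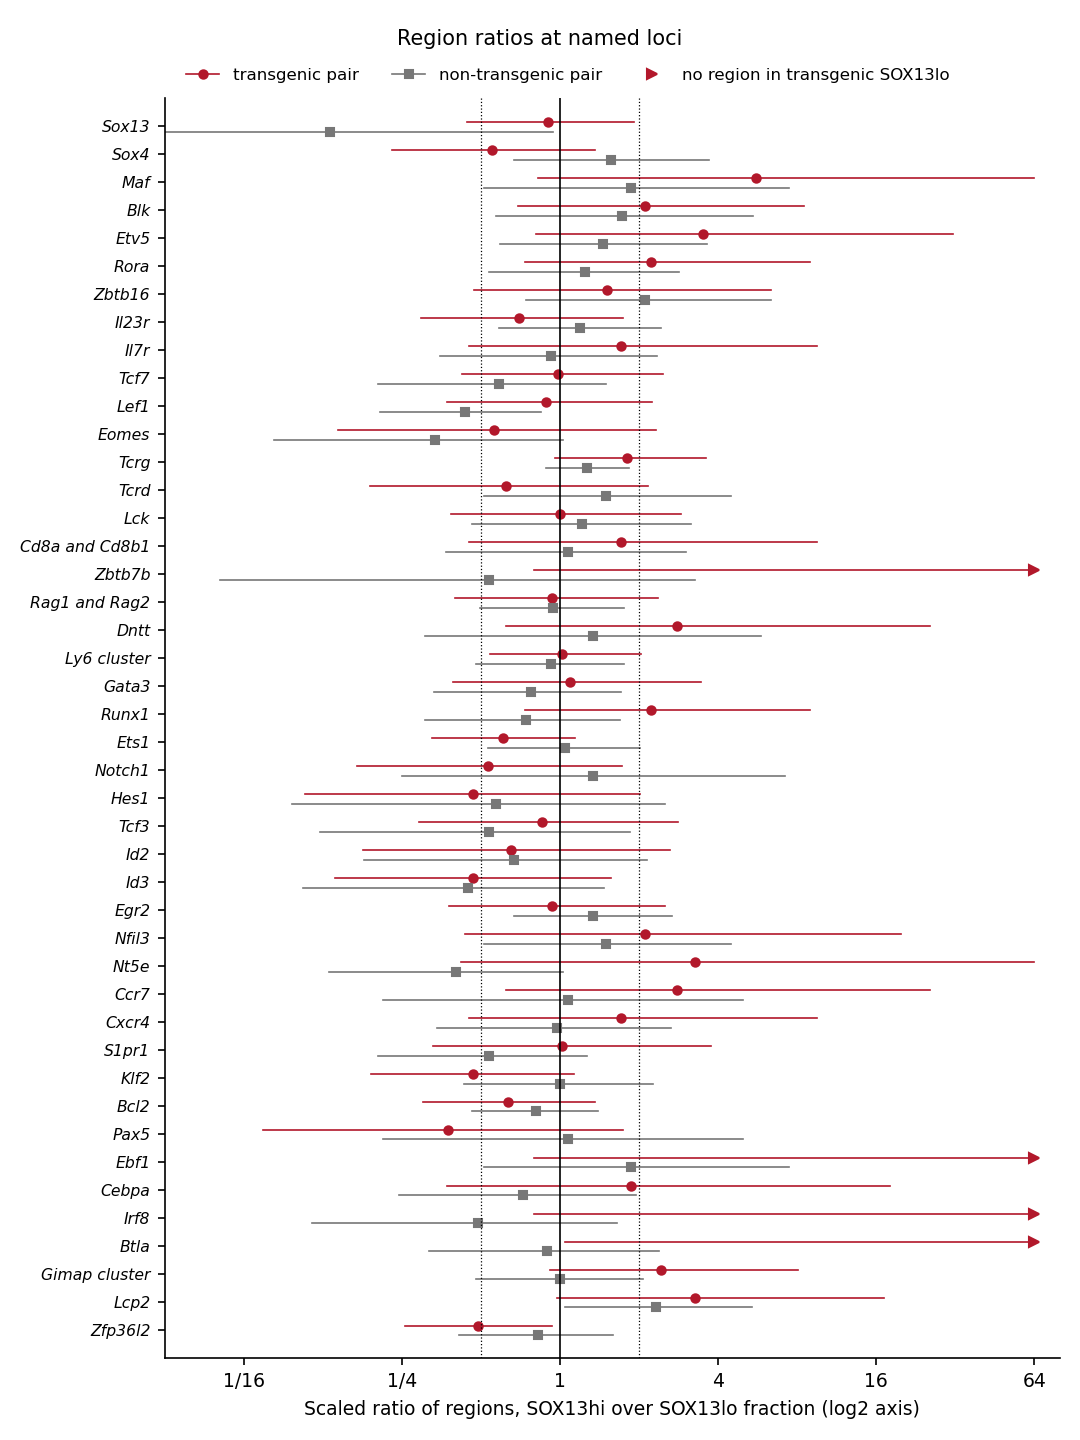
Scaled ratio of regions (x axis, log2 scale) at 40 of the 42 loci named by rule and 4 loci added after their values were seen (y axis), for transgenic SOX13hi over transgenic SOX13lo (circles) and SOX13hi over SOX13lo (squares), with all peaks. Lines are exact 95% intervals, some cut off at the edge of the axis, dotted lines mark 2-fold and triangles mark loci with no transgenic SOX13lo region; the transgenic ratio of Maf is 5.59 and that of Id3 is 0.466.

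Sox13 itself was examined first, since the transgene and the sort both concern it. Its locus (chr1:135200001-135400000) held 25 regions in transgenic SOX13hi and 13 in transgenic SOX13lo, against 1, 10 and 15 in the libraries without the transgene. The scaled transgenic ratio was 0.896 (0.441 to 1.91), so the fractions did not differ beyond counting error in number. Without the transgene the ratio was 0.133 (0.00308 to 0.938), lower in the library labelled SOX13hi, which is against the direction of the fraction names. The peak names of the SOX13lo list read SOX13hi, and its label was followed here too. With the equal number these libraries held 1 region each. The strongest peaks overlapped and were ranked differently: transgenic SOX13lo had a peak of 644 bp at chr1:135279416-135280059, with the score 780 in its list, and transgenic SOX13hi had its highest score there, 59, on a peak of 329 bp at chr1:135279867-135280195. No library without the transgene had a peak that met either. Reads from the transgene and from the endogenous gene cannot be told apart in these lists.

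Among the 8 loci of regulators of IL-17-producing γδ T cells, 4 were at least 2-fold higher in transgenic SOX13hi and none in transgenic SOX13lo. The 4 were Maf, Blk, Etv5 and Rora. Over all loci 12 of 69 passed towards transgenic SOX13hi, and over all tested bins 8.55% did. Summed over the 8 loci, transgenic SOX13hi held 136 regions and transgenic SOX13lo 48, a scaled ratio of 1.32 (0.943 to 1.87), and the fractions without the transgene gave 1.37 (0.993 to 1.89). Both sums include Sox13, with 25 and 13 regions with the transgene and 1 and 10 without it. Reads of the transgene cannot be told apart there, so these ratios are not a like comparison. With the equal number 1 of 7 tested loci, Maf, passed, and the summed ratio was 1.10 (0.742 to 1.63).

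Maf encodes c-MAF, a transcription factor needed for IL-17-producing γδ T cells. Its locus (chr8:118100001-118300000) held 12, 1, 7, 5 and 9 regions, a scaled ratio of 5.59 (0.827 to 239), and the equal number gave 9 against 1, a ratio of 7.80 (1.08 to 342). Transgenic SOX13lo was the lowest library there and transgenic SOX13hi the highest. The 16 transgenic SOX13hi peaks of the window fell into 12 regions, and the 4 transgenic SOX13lo peaks fell into 1. The fold was therefore smaller by peaks than by regions. The highest-scoring peaks of the lists overlapped: transgenic SOX13hi had a peak of 409 bp with the score 99 at chr8:118231653-118232061, and transgenic SOX13lo one of 342 bp with the score 68 at chr8:118231637-118231978. Further along the chromosome, transgenic SOX13hi had 4 peaks between 118271548 and 118272229 that transgenic SOX13lo, SOX13lo and DP lacked. SOX13hi had peaks at 2 of these 4, so that at this site both SOX13hi libraries held peaks and neither SOX13lo library did. Over the autosomes, 3755 of the 33070 regions of transgenic SOX13hi alone were in SOX13hi and not in SOX13lo, so such a site is not particular to Maf. The pattern rests on the label of the SOX13lo list, whose peak names read SOX13hi.

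Blk encodes a Src-family kinase that acts in this lineage, and its locus held 18, 4, 9, 7 and 13 regions, a scaled ratio of 2.10 (0.690 to 8.51). Etv5, an ETS-family factor, had 15, 2, 12, 11 and 11 regions and a ratio of 3.49 (0.812 to 31.5). Both loci kept their strongest site in both transgenic lists. At Etv5 that site was a peak of 555 bp in transgenic SOX13hi and of 71 bp in transgenic SOX13lo, with scores of 141 and 140 in their own lists. Under the equal number the ratios were 1.30 at Blk and 1.73 at Etv5, under 2-fold.

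Rora, which encodes the nuclear receptor RORα, had 19, 4, 13, 14 and 40 regions and a ratio of 2.21 (0.735 to 8.94), which came to 1.08 with the equal number. Zbtb16, which encodes PLZF, a factor of innate-like T cells, had 13, 4, 11, 7 and 7 regions, a ratio of 1.51 (0.468 to 6.37). Sox4, an HMG-box relative of Sox13, went the other way. It had 13, 11, 14, 12 and 30 regions, a ratio of 0.550 (0.228 to 1.36), against 1.56 (0.669 to 3.69) in the fractions without the transgene. The latter ratio rests on the label of the SOX13lo list.

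Neither of the 2 tested loci of effector genes of the IL-17 programme passed 2-fold in either direction. Il17a and Il17f, the cytokine genes themselves, had 5, 0, 2, 2 and 0 regions in their shared bin, too few to be tested. Il23r, the receptor for a cytokine that sustains IL-17 production, had 15 regions in transgenic SOX13hi and 10 in transgenic SOX13lo, a ratio of 0.699 (0.294 to 1.74). Il7r, the receptor chain for interleukin 7, had 11, 3, 9, 13 and 3 regions and a ratio of 1.71 (0.451 to 9.53). DP was as low as transgenic SOX13lo at Il7r.

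Tcf7 and Lef1 had scaled ratios near 1 between the transgenic fractions, with intervals wide enough to hold 2-fold either way. Tcf7 had 19, 9, 7, 16 and 116 regions, a ratio of 0.983 (0.424 to 2.47), and Lef1 had 17, 9, 12, 37 and 64, a ratio of 0.880 (0.371 to 2.24). The fractions without the transgene gave 0.584 at Tcf7 and 0.433 (0.206 to 0.849) at Lef1, where SOX13lo held more regions than SOX13hi. Over both loci the ratio was 0.931 (0.515 to 1.74) with the transgene and 0.479 (0.268 to 0.822) without it. These intervals overlap, and the difference between the pairs was not tested. With the equal number the ratios over both loci were 0.771 (0.368 to 1.60) and 0.606 (0.282 to 1.25).

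Loci of type 1 effector genes, which act in interferon-γ-producing cells, were thinly covered, and 1 of the 5 could be tested. That was Eomes, which encodes a T-box factor, with 6, 5, 4, 16 and 25 regions and a ratio of 0.559 (0.142 to 2.31). Ifng, the gene of interferon-γ, had 3, 1, 2, 11 and 2 regions, with SOX13lo as the highest library. Over the 5 loci the ratio was 0.885 (0.391 to 2.13) with the transgene and 0.534 (0.279 to 0.975) without it. With the equal number these ratios were 1.10 (0.465 to 2.69) and 0.919 (0.388 to 2.14), so the excess in SOX13lo was not kept beyond counting error.

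None of the 6 loci of antigen receptor and receptor signalling genes passed 2-fold in either direction, and both libraries had regions at all 6 of these loci, which mark T cells. The Tcrg locus, with the γ chain genes, held 50, 13, 62, 65 and 28 regions, a ratio of 1.79 (0.959 to 3.59) that was 1.53 with the equal number. Its strongest peak in transgenic SOX13hi was 401 bp wide with the score 185, and in transgenic SOX13lo 54 bp wide with the score 84, 83 bp away. Its last bin, chr13:19400001-19500000, with 29 against 7 regions, was the autosomal bin with the largest scaled excess in transgenic SOX13hi. The D, J and C segments of Tcrd, the δ chain locus, gave the opposite order, with 8, 6, 9, 8 and 30 regions and a ratio of 0.621 (0.189 to 2.17). Lck, the kinase that starts receptor signalling, was the receptor locus nearest to equal, with 15 regions against 7 (0.998, 0.383 to 2.89).

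Genes of the αβ lineage and of the DP stage held more regions in DP, the longest list, than in either transgenic fraction, and 1 of 10 loci, Dntt, was at least 2-fold higher in transgenic SOX13hi. Cd8a and Cd8b1, the coreceptor genes of DP cells, had 11, 3, 8, 10 and 138 regions and a ratio of 1.71 (0.451 to 9.53). Rag1 and Rag2, the recombinase genes, had 18, 9, 19, 27 and 79 regions and a ratio of 0.931 (0.397 to 2.35). The Ly6 cluster of surface protein genes had 33, 15, 18, 26 and 119 (1.02, 0.541 to 2.03). At these 3 loci both transgenic fractions held fewer regions than DP.

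Dntt encodes TdT, which adds bases at receptor gene joints, and had 12, 2, 5, 5 and 29 regions, a ratio of 2.79 (0.622 to 25.7). Of the 10 regions that transgenic SOX13lo lacked there, 9 were present in DP, against 49.3% of all regions of transgenic SOX13hi alone. The window is rich in DP regions, so the share over all regions is not a matched background. Among other loci this number varied widely, with 7 of 9 at Cd8a and Cd8b1, 12 of 17 at Runx1, 3 of 13 at Etv5 and 5 of 41 at Tcrg. The difference was not tested. The strongest peak of Dntt was 347 bp with the score 58 in transgenic SOX13hi, at chr19:41105447-41105793, and 128 bp with the score 20 in transgenic SOX13lo, inside it. Zbtb7b encodes ThPOK, the factor of the CD4 lineage, and had 8, 0, 2, 5 and 18 regions. With 3 regions in place of 0 the fold was 1.24, and the exact lower limit of the ratio was 0.795. Its highest score in transgenic SOX13hi was 18, and the equal number left 2 regions against 0, too few to be tested.

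Among 12 loci of T lineage regulators, 1 (Runx1) passed towards transgenic SOX13hi and 1 (Hes1) towards transgenic SOX13lo, with 188 and 103 regions in all and a ratio of 0.850 (0.665 to 1.09). Runx1, a core factor of blood and T cell development, had 19, 4, 10, 18 and 81 regions and a ratio of 2.21 (0.735 to 8.94), which was 1.73 with the equal number, under 2-fold. Gata3, required for T cell commitment, was nearest to equal with 14, 6, 11, 19 and 48 (1.09, 0.392 to 3.45). Ets1, an ETS factor of lymphocytes, had 26, 20, 18, 23 and 130 regions and a ratio of 0.605 (0.325 to 1.14). With the equal number Ets1 had 11 against 21 regions, and its ratio of 0.454 (0.198 to 0.985) passed towards transgenic SOX13lo.

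Notch1 and its target Hes1, which carry the Notch signal that starts T cell development, both leaned towards transgenic SOX13lo. Notch1 had 8, 7, 4, 4 and 20 regions and a ratio of 0.532 (0.169 to 1.72), and 0.495 with the equal number. Hes1 had 5, 5, 3, 7 and 17 regions, a ratio of 0.466 (0.107 to 2.02). All 5 transgenic SOX13hi peaks at Hes1 were weak, with a highest score of 9, and none was left with the equal number, against 5 regions in transgenic SOX13lo.

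**Figure D4:**
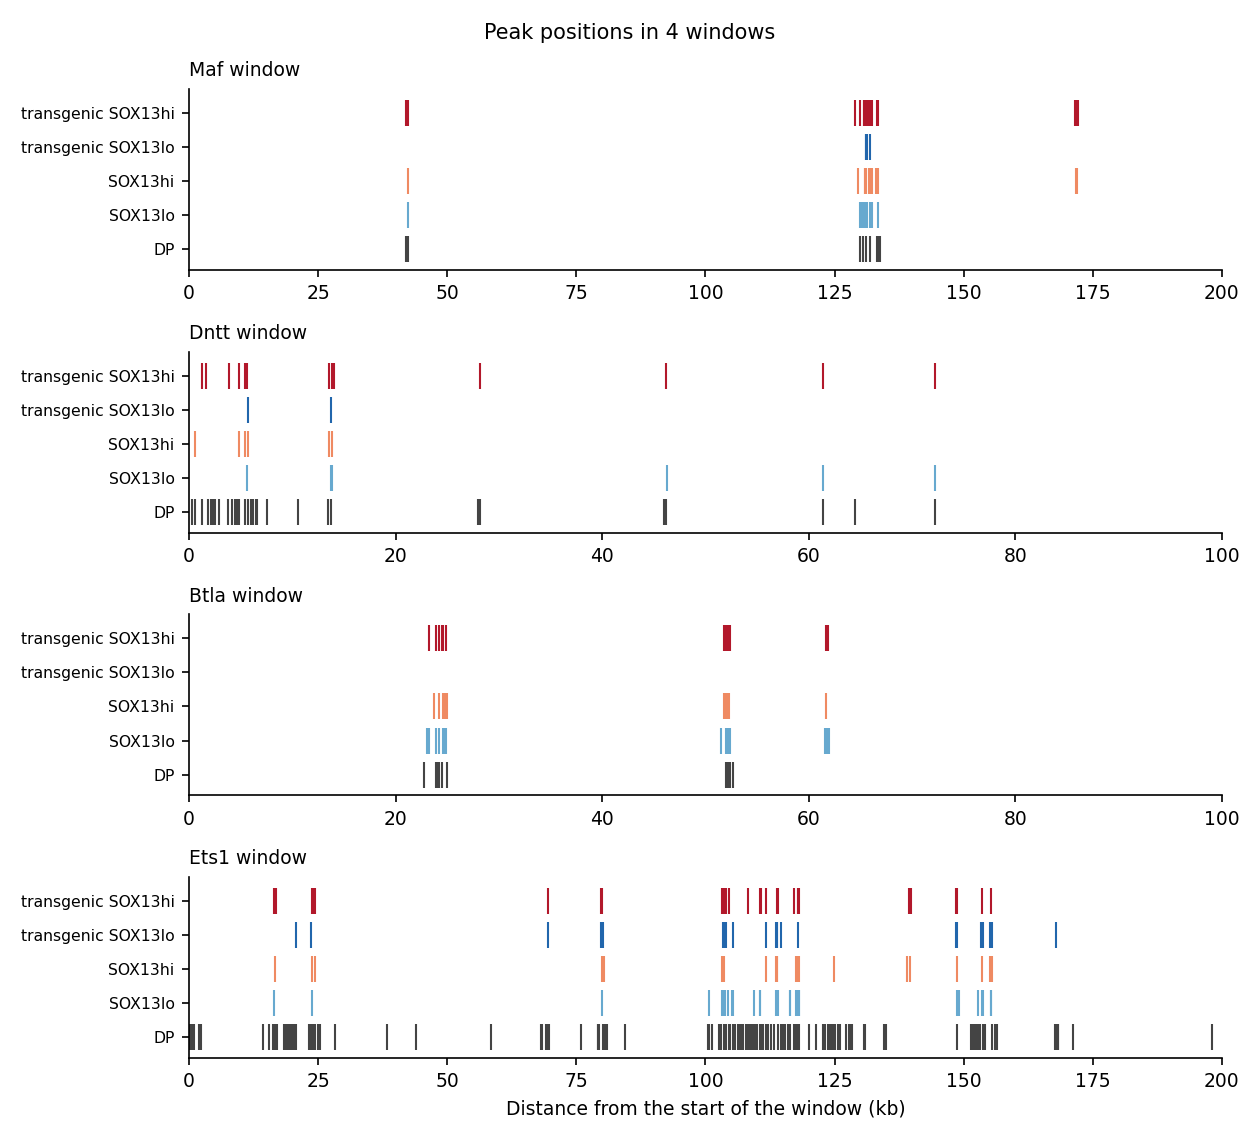
Positions of peaks in the windows of Maf, Dntt, Btla and Ets1 in the 5 libraries (rows), with all peaks, as distance from the start of the window in kb (x axis); each tick is the centre of 1 peak. Transgenic SOX13lo has 4 peaks in the Maf window and 2 in the Dntt window, against 16 and 13 in transgenic SOX13hi, no peak in the Btla window and 25 against 30 in the Ets1 window.

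E proteins drive T and B cell genes and Id proteins hold them in check. Of their 4 loci, Id3 passed towards transgenic SOX13lo and none passed the other way, with a ratio of 0.722 (0.399 to 1.34) over all. Id3, which the γδ receptor signal induces, had 7, 7, 4, 12 and 60 regions and a ratio of 0.466 (0.139 to 1.56), with 0.433 for the equal number and 0.445 in the fractions without the transgene. Id2 had 7, 5, 5, 10 and 23 regions (0.652, 0.178 to 2.61). Tcf3, which encodes the E2A proteins, was nearest to equal with 11, 6, 4, 10 and 24 (0.854, 0.289 to 2.81).

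Of 10 loci that respond to receptor signals or mark γδ subsets, 2, Nfil3 and Nt5e, passed towards transgenic SOX13hi and none towards transgenic SOX13lo, with a ratio of 1.02 (0.763 to 1.37) over all 10. Nfil3, a basic leucine zipper factor, had 9, 2, 9, 8 and 18 regions and a ratio of 2.10 (0.434 to 19.9), and 7 against 2 with the equal number (3.03). Nt5e encodes CD73, a surface enzyme that marks γδ thymocytes after a strong receptor signal. It had 7, 1, 6, 20 and 10 regions, a ratio of 3.26 (0.419 to 147) with the transgene and 0.400 (0.132 to 1.03) without it. Its count over both transgenic libraries was the minimum of 8, so it was tested only through the library where it was high. With the equal number it had 4 against 1 regions, too few to be tested. The order of the fractions was opposite in the pairs, though both intervals include 1. The order without the transgene rests on the label of the SOX13lo list. The strongest site of Nt5e was open in both transgenic fractions, as a peak of 300 bp with the score 66 in transgenic SOX13hi and of 80 bp with the score 40 in transgenic SOX13lo. Egr2, an early response factor, was nearest to equal with 16, 8, 19, 19 and 34 (0.931, 0.376 to 2.51).

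Of 8 loci of trafficking and survival genes, 6 passed in neither direction, 1 (Ccr7) passed towards transgenic SOX13hi and 1 (Klf2) towards transgenic SOX13lo. With the equal number none of the 7 tested loci passed. Ccr7, a chemokine receptor for entry to lymph nodes, had 12, 2, 4, 5 and 34 regions and a ratio of 2.79 (0.622 to 25.7), with no score above 18 in transgenic SOX13hi and 3 against 2 regions under the equal number, too few to be tested. Klf2, the factor that switches on exit genes, had 12, 12, 12, 16 and 23 regions, a ratio of 0.466 (0.191 to 1.13). Its ratio was 0.650 with the equal number, under 2-fold, and its direction turned in the upper 50% of scores and for peaks wider than 30 bp. S1pr1, the exit receptor that KLF2 induces, was level with 11, 5, 8, 20 and 4 (1.02, 0.328 to 3.76). Cxcr4, a chemokine receptor of early thymocytes, had 11, 3, 8, 11 and 23 (1.71, 0.451 to 9.53). Bcl2, the survival factor, had 19, 14, 23, 38 and 46 (0.632, 0.300 to 1.36).

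Markers of B and myeloid cells were counted as a check on other cell types that a sort could hold. The 8 loci held 47 regions in transgenic SOX13hi, 16 in transgenic SOX13lo, 38 in SOX13hi, 58 in SOX13lo and 101 in DP, a transgenic ratio of 1.37 (0.762 to 2.58). Their part in the other differences was not tested. Ebf1, an early B cell factor, had 8, 0, 7, 5 and 16 regions, and Irf8, a factor of myeloid and B cells, had 8, 0, 4, 11 and 25. Each fold was 1.24 with 3 regions in place of 0, as at Zbtb7b, with an exact lower limit of 0.795. The equal number left 5 against 0 regions at Ebf1 and 3 against 0 at Irf8, too few to be tested. Pax5, the B lineage factor, had 4, 5, 4, 5 and 7 regions (0.373, 0.0739 to 1.73), and a ratio of 0.694 with the equal number, under 2-fold. Cebpa, which encodes a myeloid factor, had 8 regions against 2 (1.86, 0.372 to 18.0). Ms4a1, which encodes CD20, had 1 region in transgenic SOX13hi and none in transgenic SOX13lo.

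The 10 bins with the largest scaled excess in each direction were then set beside the libraries outside the pair. Those with more in transgenic SOX13hi were also well covered without the transgene: besides the Tcrg bin, they held 11 to 22 regions in SOX13hi and 7 to 22 in SOX13lo, beside 12 to 23 in transgenic SOX13hi and 0 to 5 in transgenic SOX13lo. The ranking itself picks bins with few transgenic SOX13lo regions, and that list was the shortest, so its low counts are no separate result. DP, the longest list, held 2 to 51 regions in the same bins. In 3 of these bins transgenic SOX13lo held no region. They were chr9:119900001-120000000 and chr9:15300001-15400000, with 13 regions each in transgenic SOX13hi, and chr4:104800001-104900000, with 12. With 3 regions in place of 0 the folds were 2.02, 2.02 and 1.86. The bin at chr6:108700001-108800000 had 21, 4, 22, 22 and 51 regions and was also among the 5 largest with the equal number, with 13 against 4. The equal number added chr9:80100001-80200000, with 9 against 1, and chr14:9400001-9500000, with 11 against 3.

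Among the bins with more in transgenic SOX13lo, 2 held few regions in the libraries without the transgene. The largest excess was at chr8:19900001-20000000, with 20, 39, 3, 11 and 3 regions, and 5 against 39 with the equal number. At chr10:57600001-57700000 the numbers were 6, 12, 0, 2 and 0, and at chr1:90100001-90200000 they were 24, 28, 14, 22 and 19. Both transgenic libraries were above the other 3 in these bins. The 7 further bins held 8 to 22 regions in transgenic SOX13hi and 13 to 21 in transgenic SOX13lo. SOX13hi held 3 to 16 regions there, SOX13lo 7 to 26 and DP 6 to 56, so several of them were also well covered without the transgene. The equal number added chr1:85200001-85300000, with 0 regions in transgenic SOX13hi against 12, where all peaks gave 10 against 12. That setting dropped transgenic SOX13hi peaks with scores below 12 and kept transgenic SOX13lo whole, down to its lowest score of 8. The 10 bins together held 108 (1.96%) of the regions of transgenic SOX13lo alone. All regions of transgenic SOX13lo alone lay in 3642 bins, of which 2468 held exactly 1 and 55 held 5 or more. Regions of transgenic SOX13hi alone lay in 10193 bins, and 2412 of these held 5 or more.

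**Figure D5:**
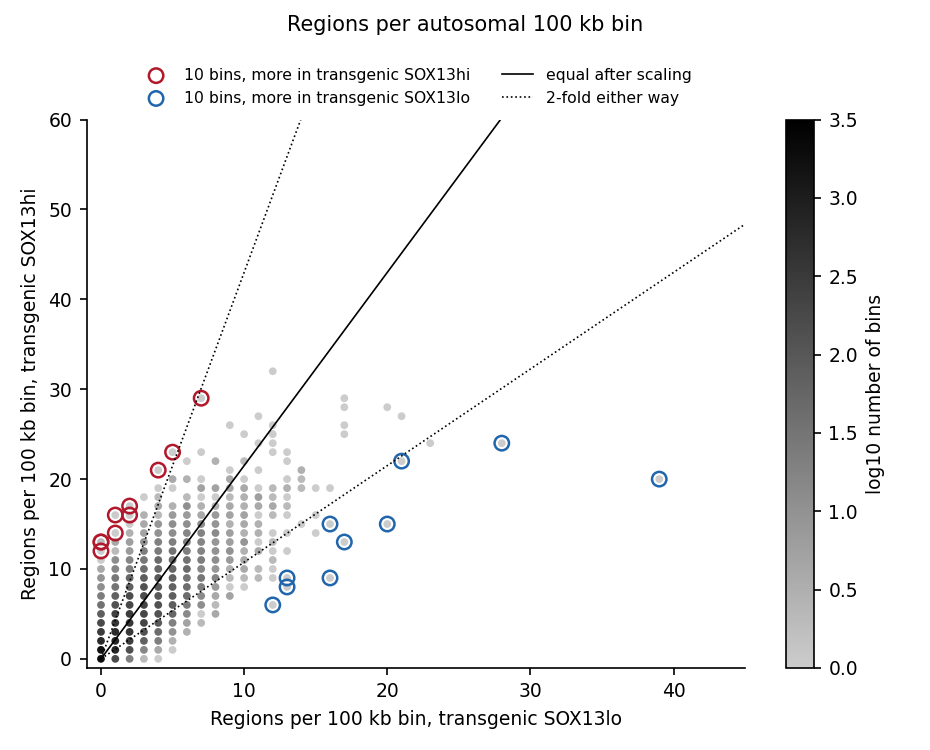
Regions per autosomal 100 kb bin in transgenic SOX13lo (x axis) and transgenic SOX13hi (y axis), with all peaks; grey shows the log10 number of bins at each pair of values, circles mark the 10 bins with the largest scaled excess in each direction, the solid line is equality after scaling and dotted lines are 2-fold either way. The bin farthest to the right has 39 regions in transgenic SOX13lo and 20 in transgenic SOX13hi, and 2 bins dense in all libraries, above 60 regions, lie outside the plot.

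Further loci of lymphocyte genes, within or near such bins, were chosen after their values were seen. The Gimap cluster of GTPase genes, which act in lymphocyte survival, had 26, 5, 15, 20 and 39 regions at chr6:48600001-48800000, a ratio of 2.42 (0.915 to 8.08), and 2.25 with the equal number. Lcp2, which encodes the adaptor SLP-76 of receptor signalling, had 21, 3, 19, 11 and 43 regions and a ratio of 3.26 (0.973 to 17.1), and 3.18 with the equal number. Both pointed to transgenic SOX13hi. Zfp36l2, an RNA-binding protein that acts on the cell cycle of thymocytes, pointed to transgenic SOX13lo. It had 22, 21, 16, 26 and 56 regions, a ratio of 0.488 (0.256 to 0.933), with 11 against 21 and 0.454 (0.198 to 0.985) for the equal number. These loci were picked for their difference, so the intervals describe counting error and test nothing.

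Sites that were strong in transgenic SOX13hi and present in SOX13hi, SOX13lo and DP were nearly all present in transgenic SOX13lo too. Of 5645 regions with a score of at least 60 in transgenic SOX13hi (its highest 10%) and present in those 3 libraries, transgenic SOX13lo held 5424 (96.1%, 95.5 to 96.6) and lacked 221. In the other direction, transgenic SOX13hi held 3022 of 3026 such regions with a score of at least 47 in transgenic SOX13lo and lacked 4. Asking for presence in the other 3 libraries picks widely open sites, so high shares were likely in advance. Peaks of 2 libraries can also fall in 1 merged region without meeting. Direct overlap in the highest 10%, without this choice, was 89.1% and 94.1%. Runs of 3 or more neighbouring regions missing from transgenic SOX13lo occurred at 2 places.

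The longer run was at Btla, which encodes an inhibitory receptor of lymphocytes, and it was found after its values were seen. Between 45223542 and 45252515 on chromosome 16, transgenic SOX13hi, SOX13hi, SOX13lo and DP each had 9 peaks and transgenic SOX13lo had none. The highest scores there, each in its own list, were 86, 89, 133 and 45. In the whole bin (chr16:45200001-45300000) the regions were 10, 0, 8, 12 and 7, and the exact lower limit of the ratio was 1.04. With the equal number (9 against 0) this limit was 1.71. With 3 regions in place of 0 the folds were 1.55 and 2.60. Absence from transgenic SOX13lo and presence in the 4 others were set by the way this run was found, so they test nothing. With the equal number SOX13hi, SOX13lo and DP held 8, 6 and 3 regions in the bin. The other run was at chr2:17285284-17287721, with 3, 0, 5, 5 and 4 peaks.

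Single strong sites were missing as well. The region with the third highest score among those of transgenic SOX13hi alone was at chr14:37129756-37130461, 706 bp wide with the score 215. It was present in SOX13hi, SOX13lo and DP, and the nearest transgenic SOX13lo peak was 546969 bp away. The next, at chr9:80165858-80166130, had the score 212, was also present in those 3 libraries and had no transgenic SOX13lo peak within 51335 bp. Others of this class lay close to a transgenic SOX13lo peak: those ranked 1, 2, 5 and 10 were 3, 50, 64 and 21 bp away. Each of the 10 highest-scoring regions of transgenic SOX13lo alone lay within 396 bp of a transgenic SOX13hi peak. The transgenic SOX13hi list is longer, so a near peak is likelier there.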

How the data were processed

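ATAC-seq peak lists of 5 libraries were used as deposited, 1 list per library and 1 library per group. The authors deposited a whole-number score with each peak, whose meaning is not stated, so scores only ranked or filtered peaks within a list. Per the submitters' processing notes, coordinates are on mm9. The aligner, the caller and the filters are not given in the sources used. The read depth, and the precision it sets, is unknown.

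Peaks were compared on the autosomes by an overlap of 1 bp, and the 5 lists were merged into regions by the same rule. A library held a region if any of its peaks overlapped it, and each region was placed in a 100 kb bin by its centre. Intervals are exact at 95.0% (Clopper-Pearson for shares, and the exact conditional interval for a ratio of 2 counts) and cover counting error only. Tools were Python 3.11.15, scipy 1.17.1, pandas 2.3.3, numpy 2.4.6 and, for plots, matplotlib 3.10.9, and the functions were tested on simulated data.

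Locus windows were placed from general knowledge of mm9, since no mm9 annotation was used here, and all 76 are on the chromosome that the GRCm38 RefSeq table gives. The Egr2 window was widened after this comparison. Loci were named where they held at least 8 regions over both transgenic libraries and differed by at least 1.5-fold, together with the locus of each role nearest to equal and Sox13, Tcf7, Lef1, Tcrg, Tcrd, Cd8 and Rag. The values of 2 of these loci are not reported here, though the counts by role include them. Bins were named by the 10 largest scaled differences in each direction (5 with the equal number), leaving out 4 bins (2 with the equal number) with 20 or more regions in every library. The members, the loci and the rules were chosen with earlier results of these data known. Btla, the Gimap cluster, Lcp2 and Zfp36l2, the windows widened by 100 kb and the exchange of the SOX13hi and SOX13lo lists were added after the values were seen. Alternatives were the equal number, the upper 50% of each list, peaks wider than 30 bp, a reciprocal overlap of 50%, centres within 200 bp, joining within 150 bp, bins of 50 and 200 kb, a minimum of 12 regions, leaving out dense bins, and all chromosomes.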

Additional observations from a re-analysis of the deposited data

Results flagged for a closer look

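At 3 loci the transgenic fractions and the fractions without the transgene went in opposite directions by at least 1.5-fold each, and the difference between the pairs was not tested. The scaled ratio of SOX13hi to SOX13lo regions was 0.550 with the transgene and 1.56 without it at Sox4, 0.621 and 1.5 at Tcrd, and 3.26 and 0.400 at Nt5e. Nt5e only just met the minimum of 8 regions, through transgenic SOX13hi, and had too few to be tested with the equal number.

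Chromosome Y, which the comparisons left out, gave 4.43 of every 1000 peaks in transgenic SOX13hi and 7.06 in transgenic SOX13lo. SOX13hi gave 1.47, SOX13lo 1.45 and DP 2.89.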

How the results depend on the processing

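No paired analysis was possible because each group holds 1 library and the labels give no replicate numbers. With 1 library per group, none was left out. The read depth behind each list is unknown. The share of transgenic SOX13hi peaks that met transgenic SOX13lo was 31.0%, and became 51.0% with the equal number, 37.4% in the upper 50% of scores, 30.3% for peaks wider than 30 bp, 9.09% with reciprocal overlap and 44.1% by centres. The share of transgenic SOX13lo peaks that met transgenic SOX13hi became 59.3% with the equal number, 77.9% in the upper 50%, 17.6% with reciprocal overlap and 84.5% by centres. Regions of transgenic SOX13hi alone numbered 11931 with the equal number, 15601 in the upper 50%, 18811 for wider peaks and 20215 with joining within 150 bp. Regions of transgenic SOX13lo alone numbered 1759 in the upper 50%, 3358 for wider peaks and 2585 with joining. Bins higher in transgenic SOX13hi and in transgenic SOX13lo numbered 121 and 141 with the equal number, 79 and 123 in the upper 50%, 111 and 149 for wider peaks, 137 and 80 with joining, and 107 and 107 at a minimum of 12 regions. Bins of 50 kb gave 217 and 348, and bins of 200 kb gave 335 and 197. With fewer regions fewer bins can be tested.

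Among one-fraction regions, the share held by SOX13hi was 57.8% and 35.7% (transgenic SOX13hi alone and transgenic SOX13lo alone) with the equal number and 45.2% and 20% with joining. For transgenic SOX13lo alone it was 22.3% in the upper 50% and 35.6% for wider peaks. The share of transgenic SOX13hi alone stayed above that of transgenic SOX13lo alone in each of these settings. It was below it, at 57.3% against 68.6%, with the SOX13hi and SOX13lo lists exchanged.

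Among the 42 named loci, the scaled difference turned direction at 4 with the equal number, 7 with joining, 8 for widened windows and 13 each in the upper 50% and for wider peaks. Of the loci that passed the 2-fold rule, those at Blk and Etv5 turned in the upper 50% of scores, to -0.177 and -0.118 regions, and that of Klf2 turned to 1.82. For peaks wider than 30 bp, those at Hes1 (2 regions) and Klf2 (2.48) turned, and for widened windows that at Zbtb7b (-1.77). Loci that did not pass it turned too, among them Notch1, Tcrd and Il23r in the upper 50%. The cause was not tested. The difference stayed within its counting interval at 41 of the 42 loci with the equal number and for widened windows, 42 with joining, 35 for wider peaks and 34 in the upper 50%. Using all chromosomes moved none of the overlap shares, region numbers or one-fraction shares beyond these limits.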
